A study of Homo sapiens with 9 samples.

Results

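The poly(C)-binding proteins are a small family of RNA-binding proteins. Its members here are PCBP1, PCBP2, PCBP3, PCBP4 and the related protein HNRNPK, looked up by name in the table of each compound. Of these 5 genes, 4 were listed in both tables, among 9221 genes listed in either, and PCBP3 was in neither. The family was chosen by the log2 of the compound mean over the vehicle mean of its members, which was already known, so these log2 values are a description and carry no test.

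All members contain KH domains, folds that bind single-stranded RNA, and those of this family prefer runs of cytosines. PCBP1 and PCBP2 are abundant in nearly all tissues, bind mRNAs to control their stability and translation, and also act as cytosolic iron chaperones that hand iron to ferritin and to iron enzymes. Hepatocytes, the cell type that the Huh-7 line derives from, store much of the iron of the body. PCBP1 is an intronless gene that arose from a reverse-transcribed PCBP2 mRNA, whereas the other members have introns. PCBP4 is less abundant and is induced by p53, and HNRNPK is a shuttling protein that works in transcription, splicing and translation.

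The values came from ribosome profiling, in which the mRNA fragments protected by ribosomes are sequenced. Huh-7, a line from a human liver carcinoma, was given PF8503 or PF846, each at 1.5 μM, or the vehicle, 0.5% DMSO, and harvested after 1 hr. Each condition has 3 libraries, described as biological triplicates, which makes 9 in all. PF8503 (PF-06378503) and PF846 (PF-06446846) are related small molecules that bind in the exit tunnel of the ribosome and arrest the synthesis of a narrow set of proteins. For each compound a deposited table lists, per transcript, the authors' mean over libraries for vehicle and for compound, in normalized counts of reads 3' of DMax, the codon where the cumulative reads of treated and vehicle cells differ most, or of most of the coding sequence where no clear DMax was found. The tables give no value for a single library, so the depth is unknown and neither a replicate error nor a p-value could be computed here. The authors' own p-values were not used. The lane fields in the library names differ between all conditions, and an effect of lane therefore cannot be told apart from one of the compounds. All 12 hepatocyte markers examined were listed, with vehicle means from 1249 to 212970 normalized counts, and none of the 7 erythroid, 3 leukocyte and 3 fibroblast markers was.

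The start of the coding sequence is shown so that the paralogs can be compared codon by codon. The first 50 codons of the members with values follow, 5′ to 3′, from the GENCODE version 44 canonical transcripts on GRCh38. Capitals mark codons for the same residue as the aligned codon of PCBP1 or, in the PCBP1 line, of PCBP2.
PCBP1: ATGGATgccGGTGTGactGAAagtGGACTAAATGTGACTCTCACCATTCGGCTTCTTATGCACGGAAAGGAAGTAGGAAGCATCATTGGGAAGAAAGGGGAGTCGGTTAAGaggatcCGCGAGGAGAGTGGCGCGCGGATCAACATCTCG
PCBP2: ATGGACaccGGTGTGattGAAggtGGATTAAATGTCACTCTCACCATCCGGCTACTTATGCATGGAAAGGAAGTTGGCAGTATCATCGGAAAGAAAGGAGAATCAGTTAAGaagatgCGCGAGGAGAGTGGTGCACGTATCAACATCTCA
PCBP4: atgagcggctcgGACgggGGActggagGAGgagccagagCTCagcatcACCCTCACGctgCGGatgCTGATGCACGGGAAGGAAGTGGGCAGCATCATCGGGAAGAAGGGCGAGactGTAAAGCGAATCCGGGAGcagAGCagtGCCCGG
HNRNPK: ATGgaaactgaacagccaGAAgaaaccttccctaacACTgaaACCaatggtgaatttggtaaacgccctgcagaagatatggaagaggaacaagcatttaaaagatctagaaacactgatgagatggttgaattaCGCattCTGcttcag

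In PCBP1 this stretch lies in its single exon at chr2:70087744-70087893 on the forward strand. In PCBP2 it is spliced from exons 2 to 5 within chr12:53454801-53455908, also on the forward strand. The PCBP4 stretch is spliced from exons 3 to 6 within chr3:51960631-51961240 and the HNRNPK stretch from exons 3 and 4 within chr9:83977695-83978252, both on the reverse strand. All are coding. PCBP1 and PCBP2 encode the same residue at 45 of the 50 codons, although only 27 codons are identical in their bases, 18 are synonymous, and 23 of the 150 bases differ. Residues 9 to 37 are an unbroken run of 29 identical residues. In PCBP4, 33 of the 50 codons encode the residue aligned in PCBP1, and in HNRNPK 6 do. The bases shown occur in 13 of the 18 coding transcripts of PCBP2, 12 of the 13 of PCBP4 and 27 of the 28 of HNRNPK. Another transcript in the authors' reference would thus usually contain the same bases. Whether its coding sequence starts at them was not checked.

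With PF8503, PCBP1 and PCBP2 were both far below vehicle, while PCBP4 and HNRNPK were close to it. The authors' mean for PCBP1 was 8066 normalized counts with vehicle and 2128 with PF8503, which left 26.4% of the vehicle value, a log2 difference of -1.92. Only 2 of the 9157 transcripts of the table had a lower log2 value. For PCBP2 the authors' means were 8575 with vehicle and 3181 with PF8503, or 37.1% of vehicle and a log2 difference of -1.43, the value at place 7 from the bottom. Both thus stood among the transcripts with the lowest values in the table. The tables hold no mRNA levels, and for these genes reads 5′ of DMax are not in the counts.

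The remaining members did not share this decrease. PCBP4 had authors' means of 779 with vehicle and 823 with PF8503, a log2 difference of 0.080. HNRNPK, the most abundant member, had 15181 and 15472, a log2 difference of 0.027. The log2 values of both lay inside the central 95% of the table, which ran from -0.32 to 0.28. Of the 4 members, 2 were lower by a log2 of at least 0.5, against 1.08% of all listed transcripts, and the same 2 were lower by at least 1, against 0.251%. None was higher by 0.5, against 0.24% of all transcripts. Since these contrasts were known when the family was chosen, the shares are given as background.

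**Figure D1:**
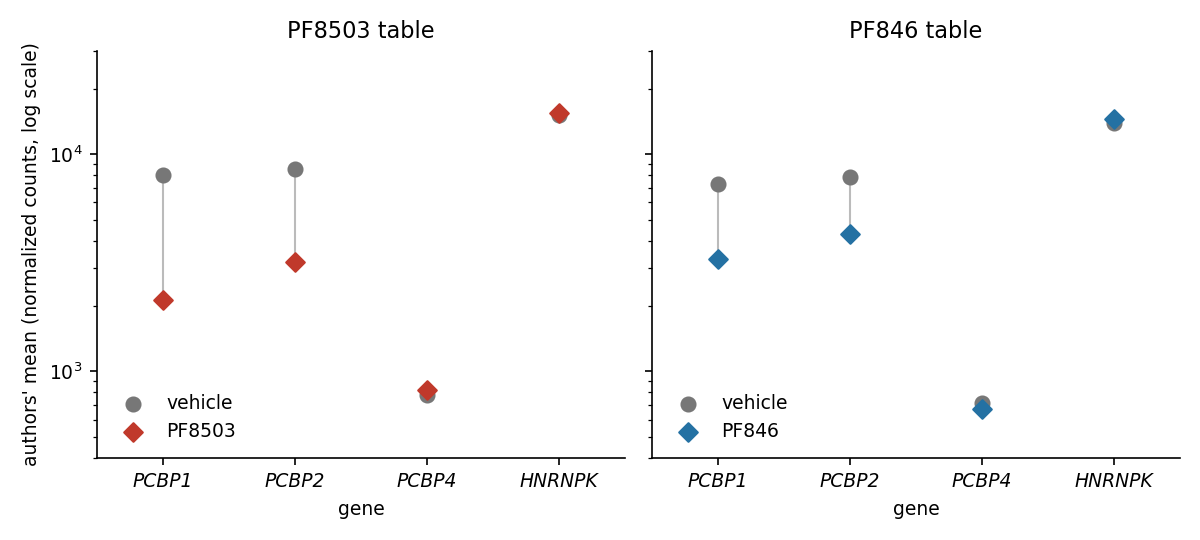
Authors' means in normalized counts on a log scale for the 4 listed members, with vehicle as circles and compound as diamonds, in the PF8503 table (left) and the PF846 table (right). Each point is 1 mean over libraries without an error. PCBP1 went from 8066 to 2128 with PF8503 and from 7316 to 3289 with PF846, whereas the circle and diamond nearly coincide for PCBP4 and HNRNPK.

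With PF846 the same paralogs were low, by less. The authors' mean for PCBP1 was 7316 normalized counts with vehicle and 3289 with PF846, 2.22-fold lower, a log2 difference of -1.15. It took place 9 from the bottom among 8839 transcripts. PCBP2 had 7849 with vehicle and 4314 with PF846, or 55.0% of vehicle, a log2 difference of -0.86 and place 17. PCBP1 was again the lower of the pair.

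PCBP4 had authors' means of 713 with vehicle and 674 with PF846, a log2 difference of -0.082, and HNRNPK had 13895 and 14520.1, a log2 difference of 0.063. Both were again inside the central 95% of the table, from -0.23 to 0.22. Members lower by a log2 of at least 0.5 numbered 2 of 4, against 0.396% of all listed transcripts, and 1 of 4, PCBP1, was lower by at least 1, against 0.124%. No member was higher by 0.5, where the share of all transcripts was 0.0792%.

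**Figure D2:**
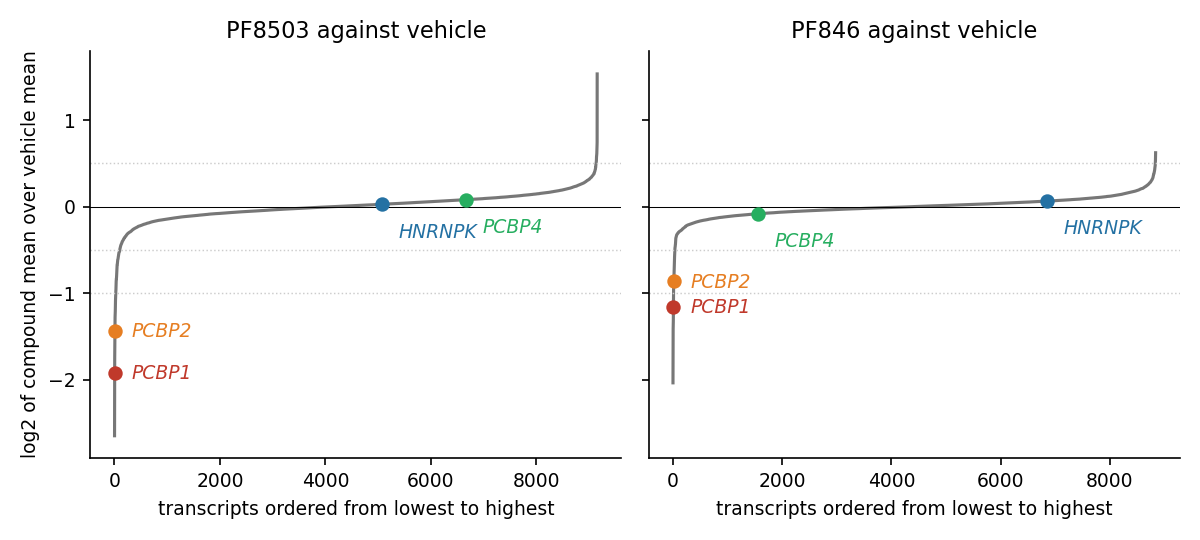
All transcripts of each table ordered by the log2 of the compound mean over the vehicle mean (grey line), with the members as coloured points and dotted lines at -1, -0.5 and 0.5. PCBP1 and PCBP2 sit at places 3 and 7 of 9157 with PF8503 and at 9 and 17 of 8839 with PF846, and the other members lie on the flat part of the curve.

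Both compounds were given at the same dose and for the same time, so their values can be set side by side. The vehicle libraries are common to both tables, and without single libraries neither an interval nor a test of the difference can be had for any of the 4 members. The log2 difference with PF8503 minus that with PF846 was -0.77 for PCBP1 and -0.57 for PCBP2, so both were lower with PF8503. Of the 8775 transcripts in both tables, 0.376% had a more negative difference between compounds than PCBP1 and 0.764% than PCBP2. For PCBP4 the difference between compounds was 0.16 and for HNRNPK it was -0.036. PCBP4 was thus slightly above vehicle with one compound and slightly below with the other, by amounts within the central range of each table.

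**Figure D3:**
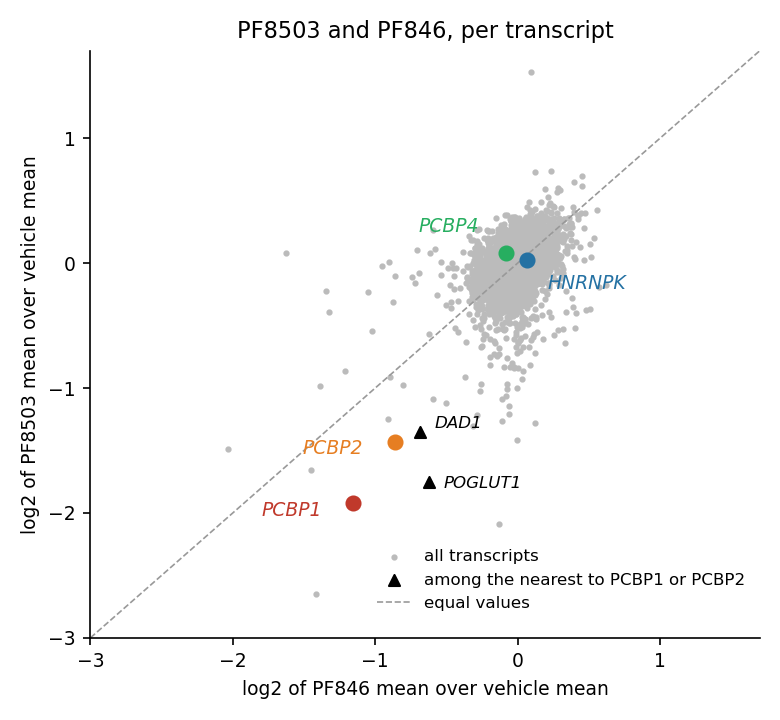
Log2 of compound mean over vehicle mean for PF8503 (vertical) against PF846 (horizontal), 1 grey point per transcript in both tables, with the members coloured and POGLUT1 and DAD1, among the nearest to PCBP1 or PCBP2, as triangles. PCBP1 (-1.15, -1.92) and PCBP2 (-0.86, -1.43) lie below the dashed line of equal values, and PCBP4 and HNRNPK lie in the central cloud.

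Within the pair, the decrease was always larger for PCBP1. Its log2 difference minus that of PCBP2 was -0.49 with PF8503 and -0.29 with PF846. PCBP1 supplied 48.5% of the summed reads of the pair with vehicle and 40.1% with PF8503. In the other table its share was 48.2% with vehicle and 43.3% with PF846. The pair together had 16641 normalized counts with vehicle and 5308 with PF8503, or 31.9%. In the PF846 table it had 15165 and 7603, or 50.1%. Over the 4 listed members the summed mean was 66.3% of vehicle with PF8503 and 76.6% with PF846, with HNRNPK as the largest contributor.

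Per length, the members had very different levels in vehicle cells. The authors' vehicle mean of the PF8503 table, divided by the codons of the coding sequence, was 32.7 normalized counts per codon for HNRNPK (464 codons), 23.7 for PCBP2 (362 codons), 22.7 for PCBP1 (356 codons) and 1.93 for PCBP4 (403 codons). These levels are 72.4%, 69.3% and 5.91% of that of HNRNPK for PCBP2, PCBP1 and PCBP4. PCBP1 and PCBP2 are neighbours in this order and cannot be separated without replicate values. For this pair reads 5′ of DMax were left out while all codons were counted in the divisor, and how far this lowers their levels was not computed. PCBP3, which was not listed, had no level.

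The region counted can be compared between the tables, because the same vehicle libraries enter both. Dividing one vehicle mean by the other gave a median of 1.09, and 98.5% of the shared transcripts lay within 0.002 of it on the log2 scale. PCBP2, PCBP4 and HNRNPK kept this ratio, so the same codons were counted for both compounds. For PCBP1 the region of the PF8503 table held 0.914% more vehicle reads than that of the PF846 table, so slightly different stretches were counted. The share of compound reads in the added stretch is not known. In the supplementary listing of the study PCBP1 and PCBP2 are among the transcripts with a clear DMax for both compounds, so their reads 5′ of it were not counted. PCBP4 and HNRNPK are not in that listing, and whether a DMax was used for them was not determined here. The tables give 1 region per transcript, so the part of the choice of region in these values was not tested.

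The members differ in how far they resemble PCBP1. They were grouped as a family of related proteins, so their likeness is not independent of the choice of genes. In alignments of the whole proteins PCBP1 was 85.5% identical to PCBP2, 74.1% to PCBP3, 59.9% to PCBP4 and 37.8% to HNRNPK, over the aligned residues. The likeness is uneven along the chain. Of residues 1 to 20 of PCBP1, 17 are identical in PCBP2, 15 in PCBP3, 10 in PCBP4 and 6 in HNRNPK. Of residues 21 to 40, 18, 17, 19 and 8 are identical, in the same order, and of residues 41 to 60, 20, 19, 15 and 5. PCBP4 thus matches PCBP1 about as well as PCBP2 does between residues 21 and 40, and less well on either side. At residue 21 of PCBP1 the aligned residue lay further along the chain, by 4 residues in PCBP4, 29 in HNRNPK and 32 in PCBP3. In PCBP2 the shift was 0. For HNRNPK some matches before residue 21 precede this shift and lie at the first residues of both proteins. With 4 listed members the likeness to PCBP1 is a description, and its part in the footprint values was not tested.

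**Figure D4:**
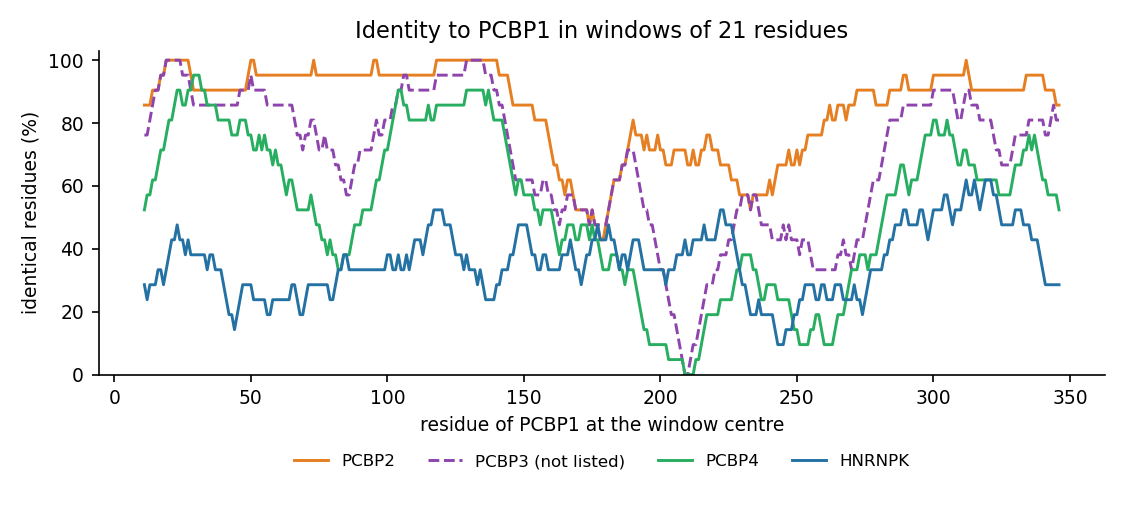
Percentage of identical residues in windows of 21 residues along PCBP1 (horizontal axis, residue at the window centre) for PCBP2, PCBP3, PCBP4 and HNRNPK. PCBP2 is the highest over most of the chain, PCBP4 rises just above it at windows centred on residues 29 to 31, at 95.2% against 90.5%, and falls below HNRNPK in the middle of the chain, and HNRNPK reaches at most 61.9%.

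Near-identical paralogs can share reads, and the authors kept only reads with a single position. Of the 1040 possible reads of 29 bases from the coding sequence of PCBP1, 5 also occur exactly in another canonical coding transcript, in each case PCBP2. For PCBP2 it was 5 of 1058, so 99.5% were unique in both paralogs, and for PCBP4 and HNRNPK 100% were. The many synonymous differences seen in the sequences above thus leave almost every exact read assignable, although reads with sequencing errors were not considered. Whether any reads were assigned to the wrong paralog was not tested.

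Proteins outside the family that carry short stretches of the same sequence were looked up as well. Words of 6 residues from the first 60 residues of PCBP1 or PCBP2 occur in 45 other proteins, each with 1 such word, and 19 of these genes were listed in the tables. In 1 of the 19 the word starts within the first 60 residues, and the median start is residue 283, so nearly all lie deeper in the chain than in PCBP1 and PCBP2. Their log2 differences ran from -0.17 to 0.23 with PF8503, and all 19 were within 0.5 of vehicle, as were 98.7% of all transcripts. With PF846 the 18 listed ran from -0.47 to 0.17 and were within 0.5, as were 99.5% of all transcripts. These counts are the background of the tables. The lowest value in both tables was that of IGF2BP2, which binds the mRNA of insulin-like growth factor and has KH domains itself. PCBP4, by comparison, shares 12 words with PCBP1 and 11 with PCBP2.

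Most other KH-domain proteins were close to vehicle, like most transcripts. The list of 36 such genes had 30 members listed for PF8503 and 29 for PF846, and 0 were past a log2 of 0.5 in either direction. Of all transcripts, 1.08% were lower and 0.24% higher by 0.5 with PF8503, and 0.396% and 0.0792% with PF846, so a list of this size with none past it is the background. The median log2 difference was 0.017 with PF8503 and 0.0037 with PF846, against 0.013 and 0.00086 over all transcripts. The highest vehicle means belonged to RPS3, a protein of the small ribosomal subunit, with log2 differences of 0.015 and -0.0086 for PF8503 and PF846, to KHSRP, a factor of mRNA decay, with 0.10 and 0.066, and to KHDRBS1, a splicing regulator, with 0.064 and 0.059. IGF2BP2, named after its values were seen, was the lowest of the list with both compounds. Its authors' means were 1104 with vehicle and 981 with PF8503, and 1011 with vehicle and 729 with PF846, log2 differences of -0.17 and -0.47. With PF846 this is below the central 95% of the table, and the same region was counted in both tables. MEX3D, an RNA-binding ubiquitin ligase also named after its values were seen, was above the central 95% with PF8503, at 0.32, and had 0.022 with PF846.

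Other hnRNP proteins, of the group of nuclear RNA-packaging proteins to which HNRNPK belongs, were mostly near vehicle as well. The list examined left out HNRNPK, PCBP1, PCBP2 and PCBP4, so its counts do not cover the family. All 23 listed of 26 were within 0.5 with both compounds, as were 98.7% of all transcripts with PF8503 and 99.5% with PF846. Their median log2 difference was 0.0068 with PF8503 and 0.048 with PF846, and 11 and 2 of the 23 were below 0, or 47.8% and 8.70%, against 45.3% and 49.7% of all transcripts. HNRNPUL2, named after its values were seen, was above the central 95% with PF846, at 0.32, and had -0.044 with PF8503. Its vehicle mean was the lowest of the list, at 132 normalized counts in the PF846 table. The highest vehicle means, not divided by length, belonged to HNRNPA2B1, with log2 differences of 0.0068 and 0.025 for PF8503 and PF846, HNRNPU, with 0.0070 and 0.042, and PTBP1, with 0.064 and 0.016. HNRNPK, with 0.027 and 0.063, was thus close to the medians of this list.

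Genes that work with PCBP1 and PCBP2 in iron handling were examined last. Of the 12, 10 were listed and all 10 were within 0.5 with both compounds, which again is the share of nearly all transcripts. With PF8503, 2 of the 10 were below 0, against 45.3% of all transcripts, and the median log2 difference was 0.12. With PF846, 6 of 10 were below 0, against 49.7%, and the median was -0.0094. The ferritin chains that receive iron from PCBP1 had the highest vehicle means. FTH1 had a log2 difference of 0.23 with PF8503 and 0.11 with PF846, and FTL had 0.33, above the central 95% of the table, and 0.095. NCOA4, the receptor that carries ferritin to lysosomes, had -0.0027 and -0.011. SLC40A1, the iron exporter ferroportin, named after its values were seen, had 0.277 and -0.0077. The first lies inside the central 95% of the PF8503 table, which ended at 0.285. Its vehicle mean was the lowest of the list, at 106 normalized counts in that table.

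**Figure D5:**
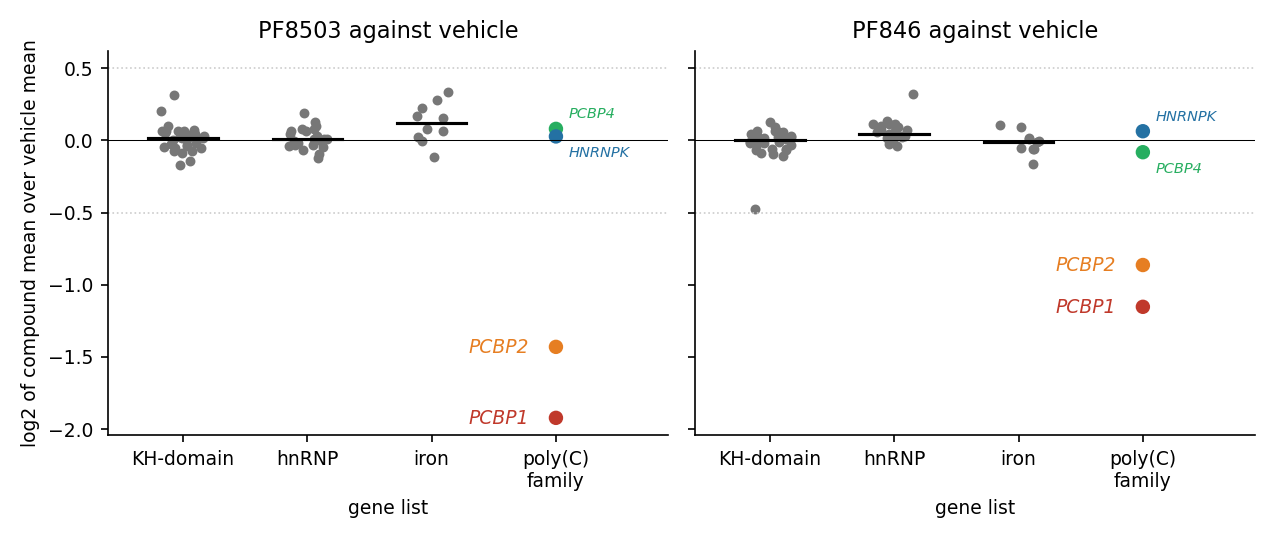
Log2 of compound mean over vehicle mean for the listed KH-domain, hnRNP and iron genes (grey points, 1 per gene, black bars at the list medians) and the 4 members (coloured), with dotted lines at -0.5 and 0.5. All list genes lie between the dotted lines with both compounds, and PCBP1 and PCBP2 lie below them.

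The transcripts most like the pair were sought by the distance between their pairs of log2 values among the 7890 transcripts with a mean of at least 100 normalized counts in both tables. Among the 3 nearest to PCBP1 were POGLUT1, which adds glucose to Notch receptors, at a distance of 0.56, and PCBP2 at 0.57. Among the 3 nearest to PCBP2 were DAD1, a subunit of the oligosaccharyltransferase, at 0.19, and POGLUT1 at 0.40. POGLUT1 had log2 differences of -1.75 with PF8503 and -0.62 with PF846, and DAD1 had -1.35 and -0.69. Both had lower levels than the pair, with vehicle means in the PF8503 table of 189 and 1395 normalized counts. The region of the PF8503 table held 130% of the vehicle reads of the PF846 region for DAD1 and 97.4% for POGLUT1. The log2 values of each gene therefore come from different stretches. Both lay below the central 95% of each table, and likeness over 2 values says nothing of shared function.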

How the data were processed

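The libraries were aligned by the authors with Bowtie to canonical coding transcripts of GRCh38, keeping reads with 1 position, and transcripts with more than 30 counts in the region used were compared with DESeq (versions not given in the sources used here). Each deposited signal value is the authors' mean, over the libraries of a condition, of size-factor normalized counts. Columns with the authors' fold changes and p-values were not used. For each compound the log2 of the compound mean over the vehicle mean was computed, with no pseudocount, and read against the share of all listed transcripts past a log2 of 0.5 or 1. No new test could be run on means alone.

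Members and gene lists were chosen with earlier results of these data known. Named were the members, list genes past 0.5 and the 3 with the highest vehicle mean per list, the 3 transcripts nearest to PCBP1 and to PCBP2, and genes sharing words of 6 residues (as a range). Results for withheld items are not reported here.

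Sequences came from GENCODE version 44 (GRCh38), with 94.7% of the 9221 symbols matched to one of 19701 canonical coding transcripts. Proteins were aligned globally with BLOSUM62 (gap scores -10 and -0.5). Alternatives were other scalings, pseudocounts, folds, lengths and read lengths, and a minimum mean of 100. The log2 and region steps were tested on simulated data. Python 3.11.15, numpy 2.4.6, pandas 2.3.3, biopython 1.88 and matplotlib 3.10.9 were used.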

Additional observations from a re-analysis of the deposited data

How the results depend on the processing

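No paired analysis was possible because the tables hold means over libraries, and for the same reason no replicate could be left out. Across scalings and pseudocounts of 1 and 10, all log2 values of the 4 members moved by less than the robust SD of the table (0.11 with PF8503, 0.083 with PF846), and so did the differences between compounds. That SD is a spread between transcripts and says nothing of the spread between replicates. For the log2 values the scalings shift all transcripts alike and the pseudocounts are small beside the means, so little movement was possible. The background shares, the regions counted and the shares of exactly unique reads by length also stayed within their limits. Levels per codon were lower from the vehicle mean of the PF846 table, at 20.6 for PCBP1, 21.7 for PCBP2, 1.77 for PCBP4 and 29.9 for HNRNPK, as its scale is lower throughout. At a log2 of 0.25 in place of 0.5, 1 KH-domain gene was past the fold with PF8503 and 1 with PF846, 1 hnRNP gene with PF846, and 2 iron genes with PF8503. Of all transcripts, 4.23% were lower and 3.79% higher by 0.25 with PF8503, and 2.13% and 1.66% with PF846. Counts of single libraries would be needed to set errors on any of these values.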
